A study of Mus musculus with 24 samples.

Results

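The genes described here encode the liver enzymes that break amino acids down, taken by the class of amino acid they degrade. They were found as the rows of the deposited count table that carry 1 of 38 listed symbols, and 37 of the 38 had a row among the 15161 genes of the table. The symbol Gstz1-ps matched no row and was not analysed here. All 37 genes passed the filter on low counts, and the smallest count of any of them in any library was 63 reads. They were grouped as aromatic (4 genes), tryptophan (5), histidine (4), proline and ornithine (3), branched chain and propionate (12), serine and glycine (4) and lysine (1), and 4 listed aminotransferases that none of these classes names were kept as a group of their own.

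RNA was sequenced in 24 libraries from livers of C57BL6/J mice, a common inbred strain. All mice were male and 4 months old. Methionine restriction (MR) was compared with a control diet under each of 2 protein sources. Elemental MR livers came from mice fed free (elemental) amino acids with 0.17% methionine, and elemental control livers from mice fed free amino acids with 0.86% methionine. Casein MR livers came from mice fed oxidized casein, a milk protein whose methionine is made less usable by oxidation, with 0.17% methionine, and casein control livers from mice fed casein with 0.86% methionine. Each group had 6 libraries. The labels name oxidized casein for the casein MR diet but not for the casein control diet. Low methionine and oxidation of the protein therefore cannot be told apart within casein. The length of feeding and any fasting are not given here. Each library carries a number of its own, and nothing states that the numbers stand for separate mice. The p-values therefore cover only the spread from library to library, which may be technical.

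The liver is the main site where surplus amino acids are degraded. Each carbon skeleton is taken through its own chain of enzymes to intermediates that can be oxidised, made into glucose or turned into ketone bodies, while the nitrogen is passed by aminotransferases to glutamate and on to urea. Branched chain amino acids are an exception, since their first step takes place mostly outside the liver. Several of these genes, such as Tat, Tdo2, Sds and Oat, are known to be raised by glucocorticoids, glucagon or a high protein intake.

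Read totals ran from 13458941 to 20762532 per library. Markers of hepatocytes, the cells that express these enzymes, were high in every library, with summed levels of 65411 to 72159 CPM (reads scaled to a common library size) in casein MR, 99269 to 117037 CPM in casein control, 87097 to 95292 CPM in elemental MR and 109973 to 120286 CPM in elemental control. All 6 hepatocyte markers tested fell with casein MR and 2 of 6 (Alb and Apoa1) with elemental MR. Of 5 cholangiocyte markers, 3 fell with casein MR and 1 with elemental MR. Of 7 stellate markers, 2 fell with elemental MR, while 1 rose and 0 fell with casein MR. Of 6 endothelial markers, 1 rose with elemental MR and 1 fell with casein MR. The part of these markers in the results below was not tested. In whole liver, fewer cells of a type and less RNA per cell cannot be told apart. One casein MR library, C_MR_3438, held 1715 CPM of skeletal muscle transcripts, and one elemental control library, E_C_3430, held 1568 CPM of pancreatic transcripts. The scaling factors between libraries, by edgeR's trimmed mean method (TMM), lay at 1.06 to 1.14 in casein MR and 0.909 to 0.986 in casein control. Scaling by library totals alone moved the median gene by 0.26 (log2) in the casein MR comparison, 0.14 in the elemental one, 0.12 in the difference between them and 0.11 between the MR diets, so all changes below are relative to the bulk of the genes. Taken as a share of all reads, the 37 genes made up 0.708 ± 0.019% in casein MR and 0.765 ± 0.073% in casein control, and 0.753 ± 0.037% in elemental MR and 0.735 ± 0.040% in elemental control (SD, n = 6 each).

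With casein MR, at least 1 gene fell in 7 of the 8 groups, and by library totals in 6. Of the 37 genes, 20 fell and 0 rose against casein control (edgeR's quasi-likelihood test, Benjamini-Hochberg adjusted p under 0.05 over 13441 genes), or 10 fell and 7 rose when libraries were scaled by their totals alone. At an unadjusted p under 0.05 1 gene, Bckdk, was higher, as it was by the DESeq2 Wald test, while limma-voom gave 0. The 20 genes are 54.1% of the class members, where 12.7% of all genes tested fell and 10.6% rose. The 10 and 7 by library totals stand beside 768 genes that fell (5.71%) and 5731 that rose, of 13441. Under TMM, the median log2 fold change was -0.30 over the 37 genes and 0.01 over all genes, and 31 of the 37 lay below the all-gene median. The count was also 31 by library totals, but scaling shifts all genes nearly alike, so it could hardly differ. With elemental MR, 6 fell and 1 rose (3 and 5 by library totals), or 16.2% and 2.7% of the 37 genes, where 6.64% of all genes fell and 6.78% rose. By library totals 495 of all genes fell with elemental MR (3.68%) and 2834 rose. Under TMM, the median log2 fold change with elemental MR was -0.07 over the 37 genes and -0.00 over all genes. The libraries of the 2 diets did not overlap for 13 genes with casein MR, all lower, where 6.18% of all genes were lower without overlap. With elemental MR this held for 2 genes, both lower, where 3.59% of all genes were lower without overlap.

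**Figure D1:**
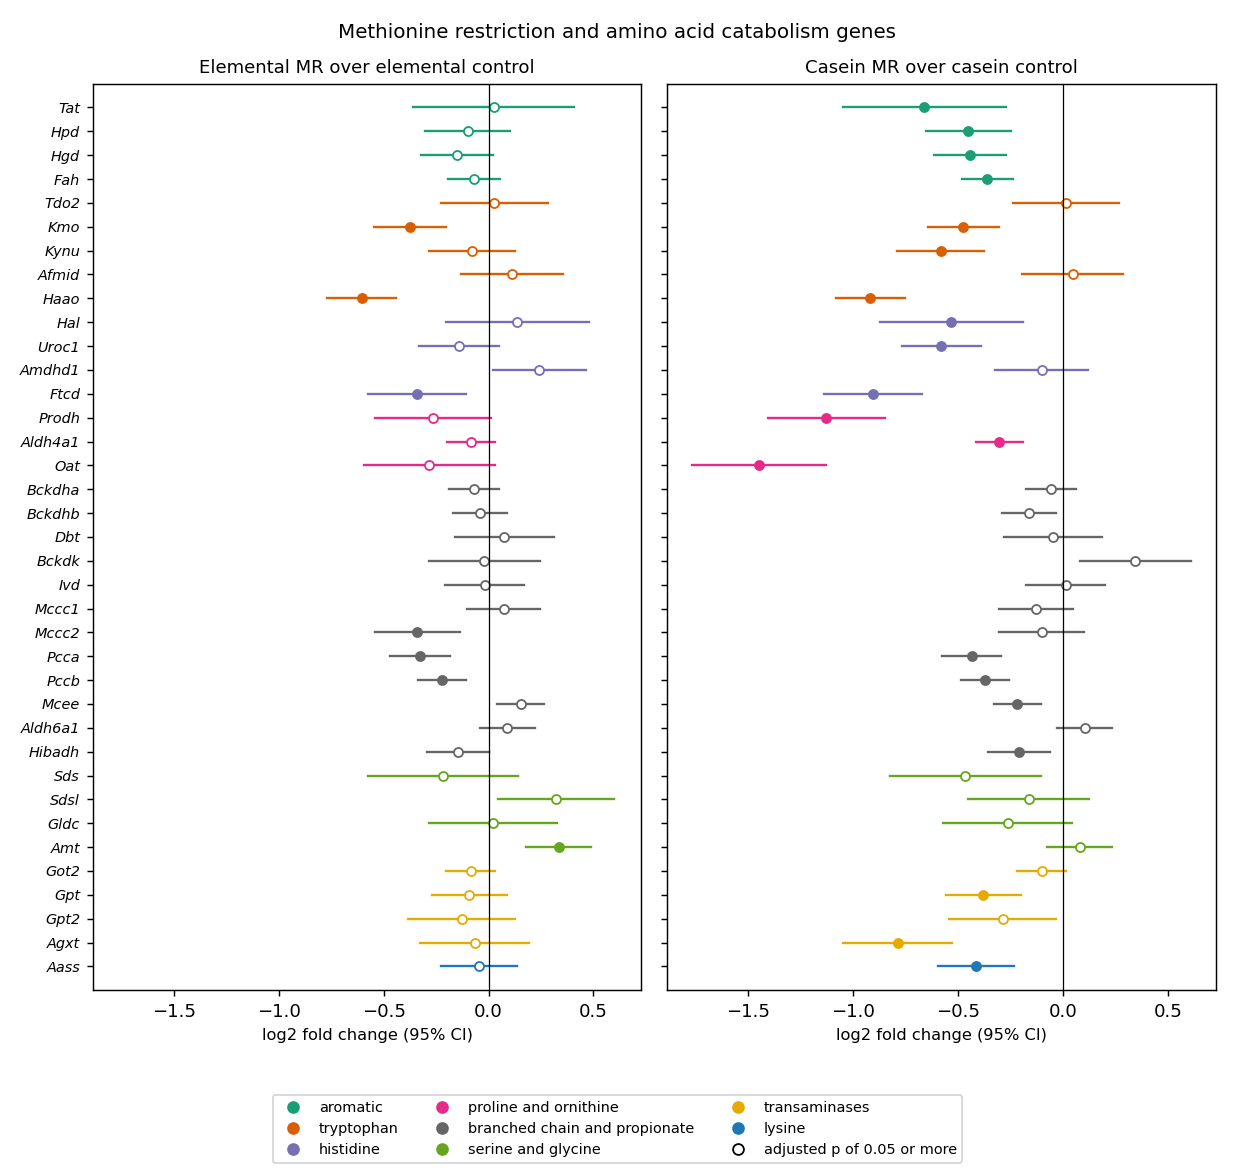
Log2 fold change of each of the 37 genes with elemental MR over elemental control (left) and casein MR over casein control (right), with 95% confidence intervals, coloured by class; filled points have an adjusted p under 0.05. With casein MR 20 genes are filled and all lie below 0 (10 below and 7 above when scaled by library totals), and with elemental MR 6 lie below and 1 above (3 and 5).

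The MR comparisons share no library. Of the 37 genes, 5 (Ftcd, Haao, Kmo, Pcca and Pccb) fell in both, where 5.07% of all genes fell in both. These are 25% of the genes that fell with casein MR and 83.3% of those that fell with elemental MR. Over all genes tested, 681 fell in both, of 1710 that fell with casein MR and 892 with elemental MR. By library totals 3 genes (Kmo, Haao and Pcca) fell in both, 30% of the 10 with casein MR and all 3 with elemental MR. By that scaling 345 of all genes (2.57%) fell in both, of 768 with casein MR and 495 with elemental MR. The elemental call of Ftcd ended in 13 of 24 cases with 1 library left out. The difference between the MR effects (casein minus elemental) was tested in the same fit, and 4 of the 37 genes passed it, all with the lower effect in casein, where 1.56% of all genes passed in that direction and 0.781% in the other. In that other direction the counts for the 37 genes were 0 by edgeR, also at an unadjusted p under 0.05, and 0 by DESeq2 and limma-voom. The 4 were Oat, Prodh, Agxt and Mcee, and 2 of them, Oat and Prodh, passed when libraries were scaled by totals. By that scaling 104 of all genes passed with the lower effect in casein (0.774%) and 227 with the higher.

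The bases just upstream of the start of these 4 genes are shown because their MR effects differed between the protein sources by that test. They come from RefSeq (mouse build GRCm38.p6), 250 bases up to the first transcribed base, read along the strand of the gene. Capitals mark CCAAT or its complement ATTGG, a box bound by factors that serve many promoters, and GGGCGG or its complement CCGCCC, a box of GC-rich promoters.
Oat, chr7:132576399-132576648, minus strand: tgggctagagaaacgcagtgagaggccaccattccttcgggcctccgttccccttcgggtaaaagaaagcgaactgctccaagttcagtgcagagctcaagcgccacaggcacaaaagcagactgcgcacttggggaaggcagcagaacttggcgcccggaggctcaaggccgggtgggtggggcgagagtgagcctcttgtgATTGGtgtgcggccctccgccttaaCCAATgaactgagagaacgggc
Prodh, chr16:18089191-18089440, minus strand: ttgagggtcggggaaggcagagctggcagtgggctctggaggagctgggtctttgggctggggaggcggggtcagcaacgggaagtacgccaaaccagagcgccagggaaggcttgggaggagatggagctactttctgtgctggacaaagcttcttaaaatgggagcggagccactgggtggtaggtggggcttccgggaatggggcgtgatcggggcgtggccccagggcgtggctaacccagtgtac
Agxt, chr1:93134990-93135239, plus strand: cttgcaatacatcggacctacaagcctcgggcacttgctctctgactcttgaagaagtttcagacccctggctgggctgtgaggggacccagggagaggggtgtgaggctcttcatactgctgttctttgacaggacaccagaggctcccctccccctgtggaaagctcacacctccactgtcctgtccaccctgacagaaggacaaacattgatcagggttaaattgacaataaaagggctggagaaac
Mcee, chr7:64392372-64392621, plus strand: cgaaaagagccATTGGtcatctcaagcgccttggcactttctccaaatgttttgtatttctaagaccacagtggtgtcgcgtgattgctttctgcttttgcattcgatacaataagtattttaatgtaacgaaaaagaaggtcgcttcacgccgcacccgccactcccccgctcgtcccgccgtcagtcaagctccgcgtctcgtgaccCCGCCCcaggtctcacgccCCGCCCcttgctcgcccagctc
Oat has CCAAT on both strands within 50 bases of its start, and Mcee has CCAAT far upstream and GGGCGG at 2 places near the start. Prodh and Agxt hold neither run of letters in this window. Of the 35 promoter entries that matched 32 of the genes, 60% hold CCAAT on either strand, where 33.8% of 32851 mouse promoters of the same length do. GGGCGG was in 34.3% of them, against 32.7% of all promoters, and TATAAA in 17.1%, against 12.4%. The cyclic AMP response element TGACGTCA was in 0 of the 35 entries and in 1.55% of all, and TGATGCAA, the run bound by ATF4 with C/EBP partners, was in 0 and in 0.791%. The motifs do not overlap each other in the sequences shown.

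The 2 lowest log2 fold changes of the 37 genes with casein MR, those of Oat and Prodh, were in proline and ornithine catabolism. Ornithine and proline are both degraded to glutamate through pyrroline carboxylate. All 3 genes of the class fell with casein MR (2 by library totals, Oat and Prodh), and 0 passed the test with elemental MR in either direction (also 0 at an unadjusted p under 0.05 and by DESeq2 and limma-voom). Oat, the ornithine aminotransferase that sends ornithine into this route, had 138, 168 and 194 CPM in casein MR libraries, against 338, 396 and 762 CPM in casein control libraries (lowest, median and highest of 6 libraries, as for all triplets below; log2 fold change -1.45 ± 0.16, adjusted p = 6.86e-08, a 2.73-fold lower level). The ranges did not overlap, and the highest control library, C_C_3437, stood well above the next at 463 CPM. On elemental diets, Oat had 245, 356 and 406 CPM in elemental MR libraries, against 327, 414 and 480.3 CPM in elemental control libraries (log2 fold change -0.28 ± 0.15, adjusted p = 0.246), and the ranges overlapped. Prodh, the proline dehydrogenase that begins proline breakdown, had 22.3, 27.3 and 30.9 CPM in casein MR libraries, against 44.5, 57.4 and 73.8 CPM in casein control libraries (log2 fold change -1.13 ± 0.14, adjusted p = 4.42e-07). On elemental diets, Prodh had 32.7, 39.3 and 48.6 CPM in elemental MR libraries, against 38.7, 45.1 and 64.9 CPM in elemental control libraries (log2 fold change -0.26 ± 0.13, adjusted p = 0.215). Here too the casein diets were fully apart and the elemental diets overlapped. Aldh4a1, which oxidises the shared intermediate to glutamate, had 174, 188 and 199 CPM in casein MR libraries, against 211, 232 and 249 CPM in casein control libraries (log2 fold change -0.30 ± 0.05, adjusted p = 0.000141), again without overlap. On elemental diets, Aldh4a1 had 209.9, 222 and 239 CPM in elemental MR libraries, against 223, 236 and 261 CPM in elemental control libraries (log2 fold change -0.08 ± 0.05, adjusted p = 0.361). Summed over the class, levels averaged 381 ± 28.9 CPM in casein MR and 745 ± 172 CPM in casein control, and 604 ± 62.0 CPM in elemental MR and 699 ± 69.8 CPM in elemental control (SD, n = 6 each).

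**Figure D2:**
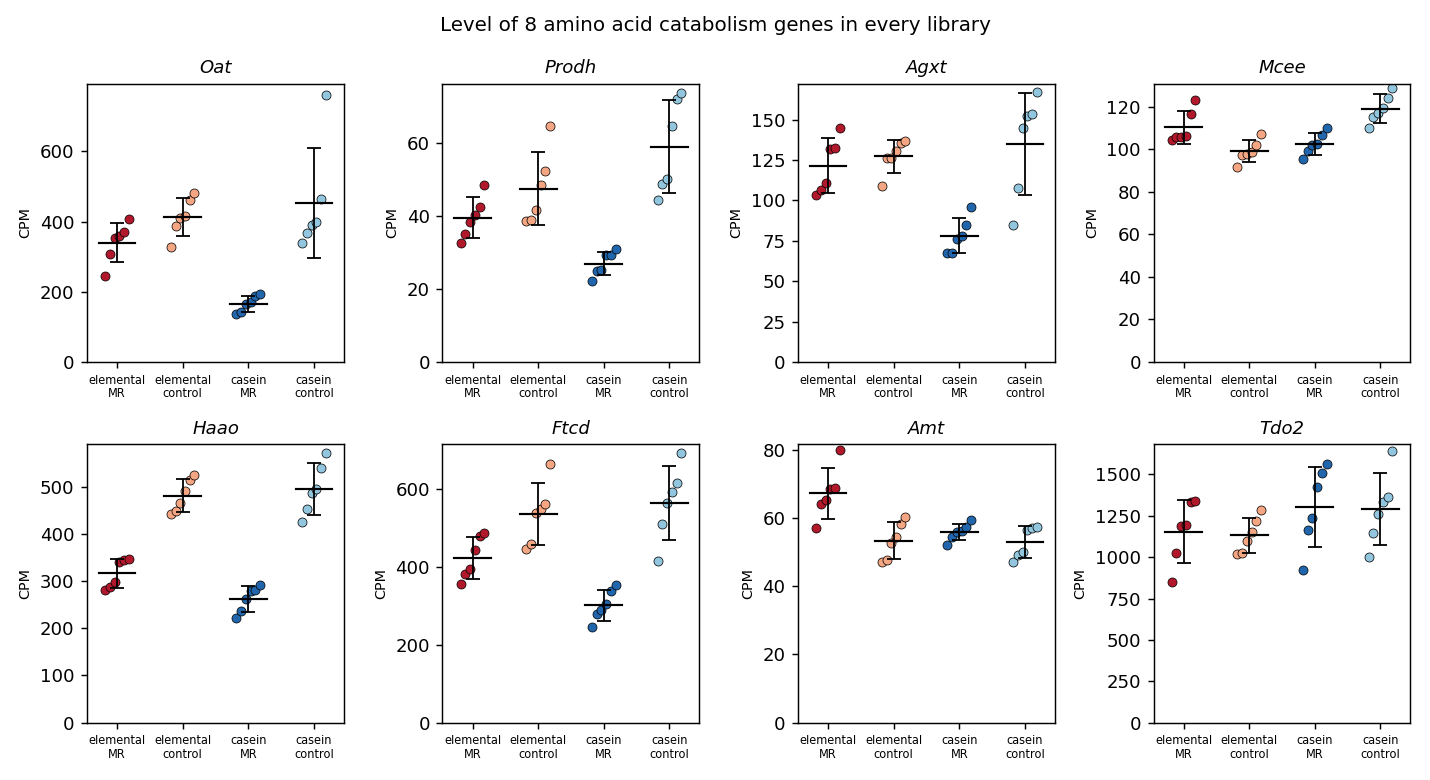
Level (CPM) of 8 genes in every library of the 4 groups; points are libraries, sorted within a group, with the group mean (long line) and SD (bars). For Oat and Prodh all 6 casein MR libraries lie below every other group's libraries, Haao is low in both MR groups, Amt is higher in elemental MR, and Tdo2 overlaps throughout.

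Of 11 other genes around proline and ornithine, 4 fell and 2 rose with casein MR, or 2 fell and 6 rose by library totals. The urea cycle enzyme Otc, which uses ornithine, fell (log2 fold change -0.54 ± 0.08, adjusted p = 8.64e-06). Pycr1 and Aldh18a1, which make proline from glutamate rather than degrade it, were the 2 that rose. Pycr1 had 0.756, 1.19 and 1.55 CPM in casein MR libraries, against 0.0, 0.118 and 0.249 CPM in casein control libraries (log2 fold change 3.21 ± 0.38, adjusted p = 4.03e-07), with 0 to 4 reads per casein control library, so the size of its change is uncertain. Aldh18a1 had 0.501, 1.01 and 2.67 CPM in casein MR libraries, against 0.081, 0.263 and 0.45 CPM in casein control libraries (log2 fold change 1.98 ± 0.37, adjusted p = 0.000223). Both also rose with elemental MR, where Pycr1 had 1.24, 1.65 and 2.8 CPM in elemental MR libraries, against 0.12, 0.255 and 0.406 CPM in elemental control libraries (log2 fold change 2.81 ± 0.33, adjusted p = 1.16e-06) and Aldh18a1 had 0.931, 1.56 and 1.82 CPM in elemental MR libraries, against 0.484, 0.545 and 0.731 CPM in elemental control libraries (log2 fold change 1.32 ± 0.33, adjusted p = 0.00786). Aldh18a1 was low in casein control libraries as well, and both genes were low in elemental control libraries. The sizes of these changes are therefore uncertain too. Of the 11, 0 fell with elemental MR (1 at an unadjusted p under 0.05, 0 by DESeq2 and limma-voom).

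Aromatic amino acids, phenylalanine and tyrosine, are degraded by a chain in which Tat removes the amino group of tyrosine, Hpd makes homogentisate, Hgd opens its ring, and Fah cleaves the last intermediate. All 4 genes fell with casein MR (1 by library totals, Hgd), and 0 passed with elemental MR (also 0 at an unadjusted p under 0.05 and by DESeq2 and limma-voom). Fah had 322, 347 and 360.1 CPM in casein MR libraries, against 392, 437 and 502 CPM in casein control libraries (log2 fold change -0.36 ± 0.06, adjusted p = 4.32e-05), with no overlap. Hgd had 253, 263 and 310.1 CPM in casein MR libraries, against 298, 358 and 441 CPM in casein control libraries (log2 fold change -0.44 ± 0.08, adjusted p = 0.000226), and Hpd had 574, 633 and 744 CPM in casein MR libraries, against 607, 882 and 1083 CPM in casein control libraries (log2 fold change -0.45 ± 0.10, adjusted p = 0.00116). For both of these the highest casein MR library reached into the control range. On elemental diets, Fah had 386, 399.7 and 413 CPM in elemental MR libraries, against 386, 421 and 468 CPM in elemental control libraries (log2 fold change -0.07 ± 0.06, adjusted p = 0.507). On elemental diets, Hgd had 287, 325 and 378 CPM in elemental MR libraries, against 341, 361 and 404 CPM in elemental control libraries (log2 fold change -0.15 ± 0.08, adjusted p = 0.263). On elemental diets, Hpd had 752, 799 and 867 CPM in elemental MR libraries, against 812, 833 and 971 CPM in elemental control libraries (log2 fold change -0.10 ± 0.10, adjusted p = 0.587). The elemental ranges overlapped for all of these. Tat varied most between libraries of a group among the 37 genes, with a mean within-group coefficient of variation of 23.5%, and its log2 fold change was -0.66 ± 0.19 with casein MR (adjusted p = 0.0107) and 0.02 ± 0.19 with elemental MR (adjusted p = 0.96). Of 6 other genes of this pathway and its cofactor, 4 fell with casein MR and 1 with elemental MR, or 2 and 1 by library totals, where 1 also rose with elemental MR. Qdpr, which renews the biopterin cofactor, fell with both casein MR (log2 fold change -0.54 ± 0.07, adjusted p = 1.14e-06) and elemental MR (log2 fold change -0.38 ± 0.07, adjusted p = 0.000419). Gstz1, the isomerase that acts between Hgd and Fah, fell with casein MR (log2 fold change -0.39 ± 0.06, adjusted p = 7.25e-06) and had a log2 fold change of -0.17 ± 0.06 with elemental MR (adjusted p = 0.0522).

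Tryptophan is degraded by the kynurenine pathway, which Tdo2 opens and which also feeds the making of nicotinamide nucleotides. Of the 5 genes, 3 (Kmo, Kynu and Haao) fell with casein MR (the same 3 by library totals, with Afmid higher), and Kmo and Haao fell with elemental MR under both scalings. Haao, the dioxygenase that opens the ring of hydroxyanthranilate, had 223, 269.7 and 292 CPM in casein MR libraries, against 424, 491 and 572 CPM in casein control libraries (log2 fold change -0.92 ± 0.08, adjusted p = 1.82e-09). On elemental diets, Haao had 282, 319 and 347 CPM in elemental MR libraries, against 441, 478 and 524 CPM in elemental control libraries (log2 fold change -0.60 ± 0.08, adjusted p = 6.65e-06). No MR library of either protein source reached the lowest control library of its own source. Kmo, the hydroxylase of kynurenine, had 110.3, 123 and 143 CPM in casein MR libraries, against 156, 175 and 192 CPM in casein control libraries (log2 fold change -0.47 ± 0.08, adjusted p = 8.14e-05), with no overlap. On elemental diets, Kmo had 104, 134 and 143 CPM in elemental MR libraries, against 141, 163 and 188 CPM in elemental control libraries (log2 fold change -0.37 ± 0.08, adjusted p = 0.0026), with overlap. Kynu, which cleaves alanine from the kynurenines, had 60.2, 68.1 and 88.4 CPM in casein MR libraries, against 90.5, 107 and 137 CPM in casein control libraries (log2 fold change -0.58 ± 0.10, adjusted p = 7.5e-05), also apart. On elemental diets, Kynu had 88.1, 109 and 135 CPM in elemental MR libraries, against 107, 117 and 128 CPM in elemental control libraries (log2 fold change -0.08 ± 0.10, adjusted p = 0.686), and the ranges overlapped. Tdo2 was the gene of the class with the highest level, and its log2 fold change was 0.01 ± 0.12 with casein MR (95% interval -0.24 to 0.27, adjusted p = 0.957) and 0.03 ± 0.12 with elemental MR (95% interval -0.22 to 0.28, adjusted p = 0.925). Afmid, the formamidase that follows it, had 0.05 ± 0.12 with casein MR (adjusted p = 0.826) and 0.11 ± 0.12 with elemental MR (adjusted p = 0.607).

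Of 6 other kynurenine pathway genes, 3 fell with casein MR and 1 with elemental MR, the same 3 and 1 by library totals, where 1 also rose with casein MR. Ido2, a relative of the enzymes that open the tryptophan ring, fell with casein MR (log2 fold change -1.09 ± 0.12, adjusted p = 8.99e-08) and with elemental MR (log2 fold change -0.45 ± 0.12, adjusted p = 0.00965), and its effect was lower in casein by the test of the difference (log2 difference -0.64 ± 0.17, adjusted p = 0.0382; not by library totals). Qprt, which makes the first nucleotide of the route to NAD, fell with casein MR (log2 fold change -0.44 ± 0.07, adjusted p = 1.98e-05). Acmsd, which takes the pathway away from NAD towards full oxidation, fell with casein MR (log2 fold change -0.81 ± 0.19, adjusted p = 0.00214).

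Histidine is degraded in a line of steps by Hal, Uroc1, Amdhd1 and Ftcd, and the last of them passes a formimino group to folate. Of the 4 genes, 3 fell with casein MR (2 by library totals, Uroc1 and Ftcd), and with elemental MR Ftcd fell, a call that library totals did not give, with Amdhd1 higher in its place. Ftcd had 245, 297 and 354 CPM in casein MR libraries, against 414, 578 and 693 CPM in casein control libraries (log2 fold change -0.90 ± 0.11, adjusted p = 8.41e-07). The casein ranges were apart. On elemental diets, Ftcd had 357, 419 and 488 CPM in elemental MR libraries, against 446, 544 and 665 CPM in elemental control libraries (log2 fold change -0.34 ± 0.11, adjusted p = 0.0451), with overlap. Uroc1 had 128, 146 and 164 CPM in casein MR libraries, against 181, 215 and 273 CPM in casein control libraries (log2 fold change -0.58 ± 0.09, adjusted p = 2.73e-05), with no overlap. On elemental diets, Uroc1 had 173, 209 and 246 CPM in elemental MR libraries, against 195, 228 and 253 CPM in elemental control libraries (log2 fold change -0.14 ± 0.09, adjusted p = 0.36), and the ranges overlapped. Hal had 135, 162 and 202 CPM in casein MR libraries, against 141, 265 and 303 CPM in casein control libraries (log2 fold change -0.53 ± 0.17, adjusted p = 0.0206), with overlap, and leaving out 1 library ended the call in 4 of 24 cases. On elemental diets, Hal had 220.3, 249 and 324 CPM in elemental MR libraries, against 152, 238 and 311 CPM in elemental control libraries (log2 fold change 0.14 ± 0.17, adjusted p = 0.667), again with overlap. Amdhd1 had a log2 fold change of -0.10 ± 0.11 with casein MR (adjusted p = 0.565) and 0.24 ± 0.11 with elemental MR (adjusted p = 0.144). Hal and Amdhd1 are next to each other on chromosome 10, and whether counting used the strand is not stated. Of 3 other genes tied to histidine (Hdc, Carns1 and Mthfd1), 0 passed the test in either MR comparison. At an unadjusted p under 0.05 1 was higher with casein MR and 1 with elemental MR, while DESeq2 and limma-voom called 0 in both, and by library totals 1 rose in each.

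Leucine, isoleucine and valine share a dehydrogenase complex, which the kinase Bckdk switches off and whose subunits include Bckdha, Bckdhb and Dbt. The routes then part ways. Ivd, Mccc1 and Mccc2 serve leucine, Hibadh and Aldh6a1 serve valine, and Pcca, Pccb and Mcee carry propionate on towards succinate. With casein MR 4 of the 12 genes fell, Pcca, Pccb, Mcee and Hibadh, while by library totals Pcca alone fell and Bckdha, Bckdk, Ivd and Aldh6a1 rose. With elemental MR 3 fell, Pcca, Pccb and Mccc2, while by library totals Pcca alone fell and Mcee and Aldh6a1 rose. None of the 3 listed subunits of the dehydrogenase complex (Bckdha, Bckdhb and Dbt) passed the test in either comparison. Their log2 fold changes lay between -0.16 (Bckdhb) and -0.05 (Dbt) with casein MR and between -0.07 (Bckdha) and 0.08 (Dbt) with elemental MR. Bckdk had a log2 fold change of 0.35 ± 0.13 with casein MR (95% interval 0.08 to 0.61, adjusted p = 0.0503), just short of the threshold, and 5 of the 8 other analyses planned placed it past the threshold.

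Of the 4 branched chain and propionate genes that fell with casein MR, 3 act on propionate. Pccb, the beta subunit of propionyl-CoA carboxylase, had 125, 131 and 143 CPM in casein MR libraries, against 157, 168 and 195 CPM in casein control libraries (log2 fold change -0.37 ± 0.06, adjusted p = 1.21e-05). On elemental diets, Pccb had 130.3, 144 and 151 CPM in elemental MR libraries, against 158, 166 and 184 CPM in elemental control libraries (log2 fold change -0.22 ± 0.06, adjusted p = 0.00712). The diets were apart under both protein sources, and both calls ended when libraries were scaled by totals. Pcca, the subunit that carries biotin, had 38.9, 40.5 and 48.7 CPM in casein MR libraries, against 53.3, 55.3 and 63.8 CPM in casein control libraries (log2 fold change -0.43 ± 0.07, adjusted p = 2.47e-05), apart as well. On elemental diets, Pcca had 39.3, 42.7 and 48.1 CPM in elemental MR libraries, against 47.6, 53.9 and 59.9 CPM in elemental control libraries (log2 fold change -0.33 ± 0.07, adjusted p = 0.00179), with overlap. Mcee, the epimerase that follows the carboxylase, had 95.6, 102 and 110.0 CPM in casein MR libraries, against 110.2, 118 and 129 CPM in casein control libraries (log2 fold change -0.22 ± 0.05, adjusted p = 0.00378), with no overlap, and by library totals its log2 fold change was 0.04. On elemental diets, Mcee had 104, 106 and 123 CPM in elemental MR libraries, against 91.8, 98.2 and 107 CPM in elemental control libraries (log2 fold change 0.15 ± 0.05, adjusted p = 0.0621), with overlap. Mcee had the smallest spread within groups of the 37 genes, a mean coefficient of variation of 5.71%. Hibadh fell with casein MR (log2 fold change -0.21 ± 0.07, adjusted p = 0.0335), a call that ended in 6 of 24 cases with 1 library left out, and was 0.05 by library totals. Mccc2 fell with elemental MR (log2 fold change -0.34 ± 0.10, adjusted p = 0.0205) and had a log2 fold change of -0.10 ± 0.10 with casein MR (adjusted p = 0.522). Its partner Mccc1 had 0.07 ± 0.08 with elemental MR (adjusted p = 0.66). Ivd and Aldh6a1 had log2 fold changes of 0.01 and 0.10 with casein MR and -0.02 and 0.09 with elemental MR, none past the threshold.

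Of 16 other genes of branched chain and propionate breakdown, 5 fell and 2 rose with casein MR, and 3 fell and 1 rose with elemental MR. By library totals 2 fell and 8 rose with casein MR, and 1 fell and 6 rose with elemental MR. Hsd17b10, a mitochondrial dehydrogenase of the isoleucine route, fell with casein MR (log2 fold change -0.88 ± 0.08, adjusted p = 8.15e-09) and with elemental MR (log2 fold change -0.54 ± 0.08, adjusted p = 5.23e-05). Abat, best known for breaking down the transmitter GABA, fell with casein MR (log2 fold change -0.62 ± 0.10, adjusted p = 3.06e-05) and with elemental MR (log2 fold change -0.32 ± 0.10, adjusted p = 0.0296). Acadsb, which acts on the isoleucine intermediate, fell with casein MR (log2 fold change -0.42 ± 0.09, adjusted p = 0.00108) and with elemental MR (log2 fold change -0.27 ± 0.09, adjusted p = 0.0478), calls that library totals did not give, nor that of Abat with elemental MR.

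Serine is deaminated by Sds and by its relative Sdsl, and glycine is split by the glycine cleavage system, to which Gldc and Amt belong. With casein MR 0 of the 4 genes passed in either direction (at an unadjusted p under 0.05, and by DESeq2 and limma-voom, 1 fell, and Amt rose by library totals), and with elemental MR Amt rose and 0 fell (Amt and Sdsl rose by library totals). Amt, the aminomethyltransferase, had 57.1, 66.9 and 80.0 CPM in elemental MR libraries, against 47.1, 53.7 and 60.2 CPM in elemental control libraries (log2 fold change 0.33 ± 0.07, adjusted p = 0.00288), with slight overlap. On casein diets, Amt had 52.2, 56.1 and 59.4 CPM in casein MR libraries, against 47.1, 53.3 and 57.5 CPM in casein control libraries (log2 fold change 0.08 ± 0.07, adjusted p = 0.503), with overlap. Sds had 28.7, 43.1 and 50.0 CPM in casein MR libraries, against 36.4, 59.6 and 70.9 CPM in casein control libraries (log2 fold change -0.47 ± 0.17, adjusted p = 0.0551), and the call was made in 7 of 24 cases with 1 library left out. On elemental diets, Sds had 29.0, 47.6 and 62.1 CPM in elemental MR libraries, against 37.6, 51.7 and 71.6 CPM in elemental control libraries (log2 fold change -0.22 ± 0.17, adjusted p = 0.478). Both pairs of diets overlapped for Sds. Sdsl had 3.57, 4.68 and 5.8 CPM in casein MR libraries, against 4.3, 5.38 and 5.91 CPM in casein control libraries (log2 fold change -0.16 ± 0.14, adjusted p = 0.455), with overlap. On elemental diets, Sdsl had 6.28, 8.0 and 9.47 CPM in elemental MR libraries, against 5.12, 6.15 and 8.6 CPM in elemental control libraries (log2 fold change 0.32 ± 0.13, adjusted p = 0.121), with overlap and the higher median in MR. Gldc had a log2 fold change of -0.26 ± 0.15 with casein MR (adjusted p = 0.232) and 0.02 ± 0.15 with elemental MR (adjusted p = 0.952). Sds and Sdsl are neighbours on chromosome 5 and related in sequence, so reads that the counting split between them would make both uncertain.

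Of 10 other serine and glycine genes, 5 fell and 0 rose with casein MR, and 2 fell and 1 rose with elemental MR. By library totals 3 fell and 4 rose with casein MR, and 1 fell and 2 rose with elemental MR. Dmgdh, a dehydrogenase of the choline route to glycine, fell with casein MR (log2 fold change -1.14 ± 0.08, adjusted p = 2.63e-11) and with elemental MR (log2 fold change -0.31 ± 0.08, adjusted p = 0.00669, not by library totals), with a lower effect in casein (log2 difference -0.82 ± 0.11, adjusted p = 6.99e-05). Gnmt, which methylates glycine with the methyl group of S-adenosylmethionine, fell with casein MR (log2 fold change -1.0 ± 0.11, adjusted p = 7.65e-08), had -0.25 ± 0.11 with elemental MR (adjusted p = 0.136), and differed between them (log2 difference -0.75 ± 0.15, adjusted p = 0.00494). Shmt1, the cytosolic enzyme that interconverts serine and glycine, fell with casein MR (log2 fold change -0.59 ± 0.07, adjusted p = 7.54e-07) and with elemental MR (log2 fold change -0.40 ± 0.07, adjusted p = 0.00039).

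Of the 4 aminotransferases, Agxt and Gpt fell with casein MR (Agxt fell and Got2 rose by library totals), and 0 passed with elemental MR (also 0 at an unadjusted p under 0.05 and by DESeq2 and limma-voom). Agxt, the enzyme that turns glyoxylate into glycine with alanine as the donor, had 67.3, 77.0 and 95.9 CPM in casein MR libraries, against 84.7, 148 and 167 CPM in casein control libraries (log2 fold change -0.79 ± 0.13, adjusted p = 2.98e-05). Its lowest casein control library lay below the highest casein MR library, so the ranges overlapped. On elemental diets, Agxt had 103, 121 and 145 CPM in elemental MR libraries, against 109, 128 and 137 CPM in elemental control libraries (log2 fold change -0.07 ± 0.13, adjusted p = 0.801). Gpt, the cytosolic alanine aminotransferase, had 74.6, 91.7 and 106 CPM in casein MR libraries, against 106, 118 and 131 CPM in casein control libraries (log2 fold change -0.38 ± 0.09, adjusted p = 0.00176), with no overlap. On elemental diets, Gpt had 99.7, 108 and 122 CPM in elemental MR libraries, against 90.1, 115 and 144 CPM in elemental control libraries (log2 fold change -0.09 ± 0.09, adjusted p = 0.565), with overlap. Gpt2, its mitochondrial counterpart, had 135, 144 and 179.9 CPM in casein MR libraries, against 137, 192 and 233 CPM in casein control libraries (log2 fold change -0.29 ± 0.12, adjusted p = 0.101). On elemental diets, Gpt2 had 109.9, 149 and 170.1 CPM in elemental MR libraries, against 128, 159 and 189 CPM in elemental control libraries (log2 fold change -0.13 ± 0.12, adjusted p = 0.576), and both pairs overlapped. Got2, the mitochondrial aspartate aminotransferase, had -0.10 ± 0.06 with casein MR (adjusted p = 0.23) and -0.09 ± 0.06 with elemental MR (adjusted p = 0.377). Of 3 other genes of this group, 2 fell with casein MR, and 0 with elemental MR by edgeR, DESeq2 and limma-voom (2 at an unadjusted p under 0.05). By library totals the same 2 fell with casein MR and 1 rose in each comparison. The 2 were Agxt2, a mitochondrial aminotransferase that also acts on glyoxylate (log2 fold change -0.81 ± 0.08, adjusted p = 3.34e-08), and Asrgl1, an asparaginase (log2 fold change -0.77 ± 0.15, adjusted p = 0.000208).

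Lysine was represented by Aass, which carries out the first steps of its breakdown in mitochondria. Aass had 86.9, 94.9 and 115 CPM in casein MR libraries, against 113, 124 and 159 CPM in casein control libraries (log2 fold change -0.41 ± 0.09, adjusted p = 0.000875), with slight overlap, and the call ended by library totals. On elemental diets, Aass had 110.4, 128 and 155 CPM in elemental MR libraries, against 123, 131 and 158 CPM in elemental control libraries (log2 fold change -0.05 ± 0.09, adjusted p = 0.798), with overlap. Of 7 other lysine genes, 5 fell with casein MR and 3 with elemental MR, or 2 and 2 by library totals, where 1 rose with casein MR. The 3 with the smallest p fell in both comparisons. Pipox, which oxidises pipecolic acid, had -0.47 ± 0.07 with casein MR (adjusted p = 8.21e-06) and -0.35 ± 0.07 with elemental MR (adjusted p = 0.000821). Aldh7a1, the dehydrogenase that follows Aass, had -0.51 ± 0.08 with casein MR (adjusted p = 3.01e-05) and -0.39 ± 0.08 with elemental MR (adjusted p = 0.00174). Gcdh, the glutaryl-CoA dehydrogenase, whose calls library totals did not give, had -0.35 ± 0.06 with casein MR (adjusted p = 0.000105) and -0.19 ± 0.06 with elemental MR (adjusted p = 0.0432).

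**Figure D3:**
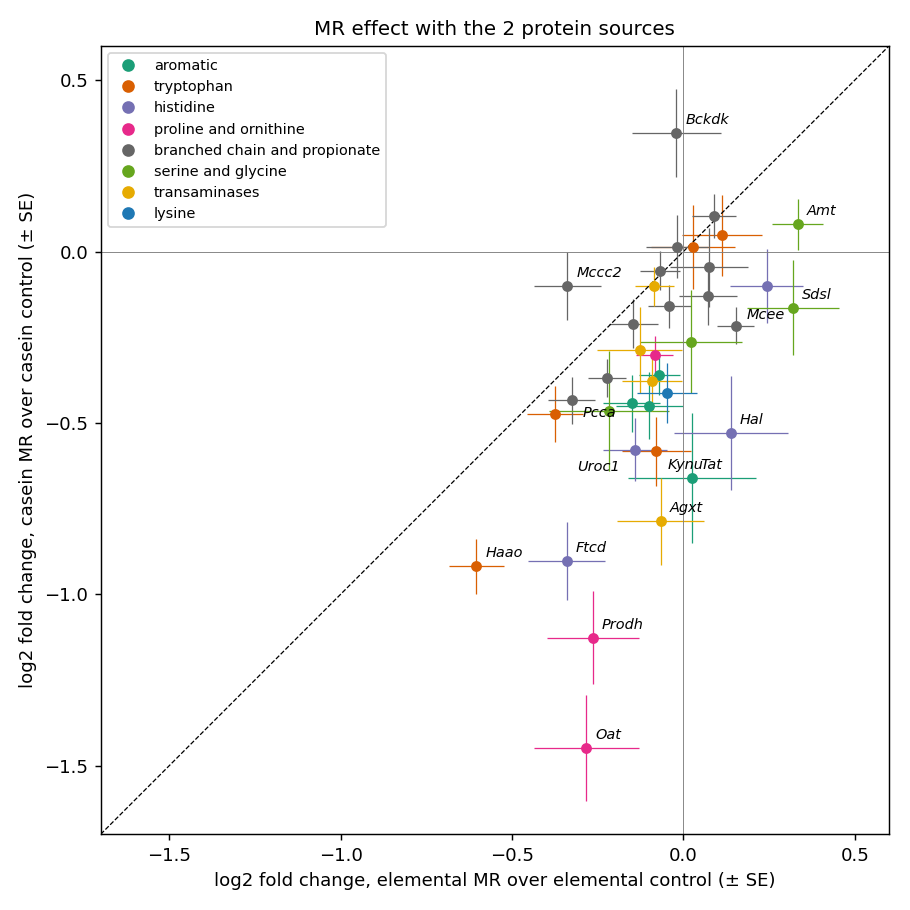
MR effect of each gene with casein (vertical axis) against its MR effect with elemental amino acids (horizontal axis), both as log2 fold change ± SE, coloured by class; the dashed line marks equal effects. Points for 32 of the 37 genes lie below the line (26 by library totals), with Oat and Prodh lowest.

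The difference between the MR effects is the casein effect minus the elemental effect on the log2 scale. It was below 0 for 32 of the 37 genes, or 26 by library totals, with a median of -0.25 against -0.00 over all genes tested. Oat had the lowest value (log2 difference -1.16 ± 0.22, adjusted p = 0.00238), then Prodh (-0.86 ± 0.19, adjusted p = 0.0104), Agxt (-0.72 ± 0.18, adjusted p = 0.0247) and Mcee (-0.37 ± 0.08, adjusted p = 0.00656). Agxt lost the call in 7 of 24 cases with 1 library left out, and Agxt and Mcee lost it by library totals. For Mcee the log2 fold change was above 0 with elemental MR, without passing the test, and below 0 with casein MR. Casein over elemental, Mcee had -0.10 between the MR diets (adjusted p = 0.298). Between the control diets it had 0.26 (adjusted p = 0.0467), a call that often ended with 1 library left out, as given below. All genes of the aromatic, tryptophan, histidine, serine and glycine classes had differences below 0 (above 0 by library totals for Tdo2, Kmo and Afmid), and none of these passed the threshold. In the branched chain class the differences lay on both sides of 0, from -0.37 (Mcee) to 0.37 (Bckdk). Other methods for the same test gave 8 of the 37 genes (DESeq2 and limma-voom), as did leaving out casein control library C_C_3407. Of the 62 other pathway genes, 6 had the lower effect in casein and 0 the higher (4 and 1 by library totals; 2 were higher at an unadjusted p under 0.05, 0 by DESeq2 and limma-voom). The 6 were Dmgdh, Gnmt, Agxt2, Gls2, Ido2 and Otc.

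**Figure D4:**
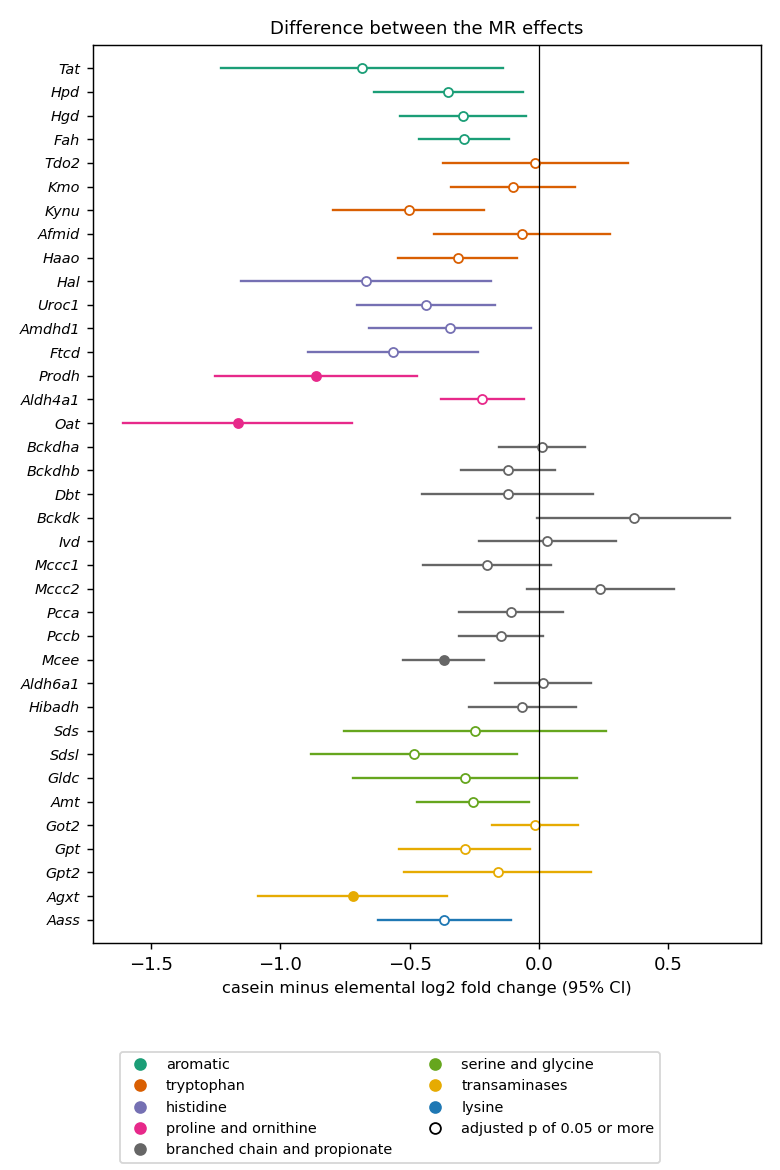
Difference between the MR effects of each gene (casein minus elemental, log2) with 95% confidence intervals, coloured by class; filled points have an adjusted p under 0.05. Oat, Prodh, Mcee and Agxt are filled, all below 0 (Oat and Prodh when scaled by library totals).

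The MR diets were then compared with each other, casein over elemental, and so were the control diets. These comparisons use the same libraries as those above, so they are given for the levels they show. Against elemental MR, 16 of the 37 genes were lower in casein MR and 0 were higher (1 higher at an unadjusted p under 0.05, 0 by DESeq2 and limma-voom), 43.2% of the genes where 3.78% of all genes were lower and 2.72% higher (10 lower and 2 higher by library totals). All 4 histidine genes, all 3 proline and ornithine genes, 3 aromatic genes (Tat, Fah and Hpd), Haao and Kynu, Amt and Sdsl, Agxt and Aass were lower, and 0 of the 12 branched chain genes passed. By library totals the lower genes were Tat, Kynu, Hal, Uroc1, Ftcd, Prodh, Oat, Sdsl, Agxt and Aass, and Bckdk and Aldh6a1 were higher. Over all genes, that scaling gave 273 lower (2.03%) and 1115 higher. Oat had the lowest value here too (log2 fold change -1.03 ± 0.15, adjusted p = 6.57e-05), then Tat (log2 fold change -0.77 ± 0.19, adjusted p = 0.0109) and Sdsl (log2 fold change -0.76 ± 0.14, adjusted p = 0.000542). Sdsl had 3.57, 4.68 and 5.8 CPM in casein MR and 6.28, 8.0 and 9.47 CPM in elemental MR, without overlap. The call of Hpd (adjusted p = 0.0497) ended in 21 of 24 cases with 1 library left out, and those of Haao and Fah in 8 and 5. Ranges did not overlap for 10 genes, all lower in casein MR, where 2.66% of all genes were lower without overlap.

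On the control diets few genes passed between protein sources. Casein control was higher than elemental control for 1 of the 37 genes, Mcee, and lower for 0 (0 lower at an unadjusted p under 0.05 and by DESeq2 and limma-voom), where 0.0298% of all genes were higher and 0.0744% lower. Mcee had 110.2, 118 and 129 CPM in casein control and 91.8, 98.2 and 107 CPM in elemental control (log2 fold change 0.26 ± 0.05, adjusted p = 0.0467). The ranges were apart, as they were for 0.327% of all genes in that direction, but the call ended in 18 of 24 cases with 1 library left out. The next smallest p in this comparison was that of Prodh, with 44.5, 57.4 and 73.8 CPM in casein control and 38.7, 45.1 and 64.9 CPM in elemental control (log2 fold change 0.31 ± 0.13, adjusted p = 0.359).

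**Figure D5:**
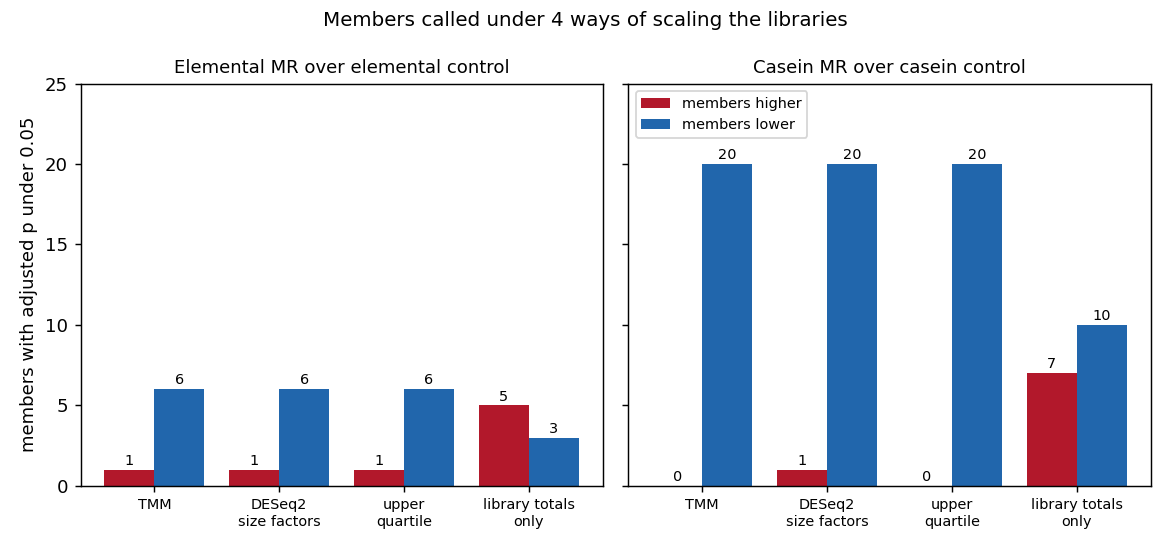
Number of the 37 genes with an adjusted p under 0.05 in each MR comparison, higher (red) or lower (blue), under 4 ways of scaling the libraries. In the casein comparison 20 genes are lower under TMM, DESeq2 size factors and upper quartile scaling and 10 under library totals alone, where 7 are higher. By library totals 768 of all 13441 genes are lower in that comparison and 5731 higher.

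The levels of the genes spanned a wide range when compared per length of merged exon (CPM per kilobase, mean of the 24 libraries). Hpd was highest at 376, before Tdo2 at 314, Fah at 182, Oat at 146 and Ftcd at 143. Prodh stood far lower at 5.55, and Sdsl, Mccc1 and Bckdk closed the order at 4.05, 2.62 and 2.42. Summed over all 37 genes, levels were 6375 ± 307 CPM in casein MR and 8252 ± 969 CPM in casein control, and 7300.1 ± 399 CPM in elemental MR and 7859 ± 530 CPM in elemental control (SD, n = 6 each). Casein MR libraries ran from 6102 to 6808 CPM, below every casein control library (7115 to 9724 CPM), while the elemental groups overlapped. As a share of all reads the casein groups overlapped too, at 0.691 to 0.741% in casein MR and 0.701 to 0.885% in casein control, and the elemental MR mean lay above that of elemental control.

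Transcription factors and receptors known to act on amino acid catabolism were looked at beside the enzymes. Of 13 tested, 3 fell and 0 rose with casein MR (0 higher at an unadjusted p under 0.05), and 1 fell and 0 rose with elemental MR (2 higher at an unadjusted p under 0.05). By library totals 1 fell and 6 rose with casein MR, and 0 fell and 3 rose with elemental MR. Of all genes tested, 12.7% fell with casein MR and 6.64% with elemental MR under TMM. Scaled by totals, 5731 of 13441 rose with casein MR and 2834 with elemental MR. Cebpa, a factor of the mature hepatocyte, fell with casein MR (log2 fold change -0.47 ± 0.07, adjusted p = 9.84e-06) and with elemental MR (log2 fold change -0.27 ± 0.07, adjusted p = 0.01, not by library totals). Creb3l3, a factor of the fasted liver, fell with casein MR (log2 fold change -0.34 ± 0.08, adjusted p = 0.00248), and so did Ppara, a nuclear receptor for fatty acids (log2 fold change -0.59 ± 0.16, adjusted p = 0.00762), neither by library totals. The glucocorticoid receptor Nr3c1 had log2 fold changes of -0.04 ± 0.07 with casein MR (adjusted p = 0.706) and -0.11 ± 0.07 with elemental MR (adjusted p = 0.332). The glucagon receptor Gcgr had -0.07 ± 0.06 with casein MR (adjusted p = 0.489) and 0.13 ± 0.06 with elemental MR (adjusted p = 0.177). Klf15, a factor known to raise enzymes of this kind, had -0.17 ± 0.18 with casein MR (adjusted p = 0.568) and -0.18 ± 0.18 with elemental MR (adjusted p = 0.576).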

How the data were processed

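The deposited raw table holds read counts per Ensembl gene and library, as the authors left them. The deposited normalized table holds a signal that was checked to equal those counts divided by 1 size factor per library (0.745 to 1.32). Sources used here name no aligner, counter, build or strand. Of the symbols, 13002 are the authors' own and 2119 come from reference annotation, and 0 per-sample columns were left unused. Counts entered 1 edgeR 4.0.16 quasi-likelihood fit (R 4.3.3) with a mean per group over all 24 libraries, after filterByExpr (13441 genes, 99.93% of reads) and TMM scaling, with Benjamini-Hochberg adjustment within each of 5 comparisons. The common biological coefficient of variation was 0.159. CPM use TMM-scaled totals, and standard errors are the fold change on the log2 scale divided by the root of its F statistic. The code was tested on simulated counts. Of 60 library pairs within groups, 0 were identical. The labels give no batch.

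The genes, lists and tests were chosen with earlier results of these data known. Named were all members, with triplets for the 3 of each class with the smallest p in either MR comparison and for members called in the difference, and up to 3 called genes per class of the other pathway genes and regulators with the smallest p in the casein comparison. Other pathway genes whose names are not given were counted only. Gls2, the histidine neighbours and the receptors and factors that did not pass were named after their values were seen. Alternatives were DESeq2 1.42.0 size factors and Wald test, upper quartile scaling, no or a stricter filter, limma-voom (limma 3.58.1), 1 surrogate variable (sva 3.50.0), the compared groups alone and leaving out each library. Library totals without TMM were added after the data were seen. Exon lengths come from GENCODE and promoters from RefSeq.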

Additional observations from a re-analysis of the deposited data

Results flagged for a closer look

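Of 148 combinations of a gene and a group of 6 libraries, 6 had 1 library far from the others by Dixon's test, and chance gives about 1 in 20. In casein control library C_C_3437, Oat stood at 762 CPM, with the next library at 463 CPM, and Pcca at 63.8 CPM, with the next at 56.8 CPM. Bckdha was high in casein MR library C_MR_3425 at 68.2 CPM, with the next at 60.8 CPM, and in casein control library C_C_3413 at 70.6 CPM, with the next at 63.5 CPM. In elemental control library E_C_3430, which also held pancreatic transcripts, Got2 stood at 562 CPM, with the next at 494 CPM. Aass stood at 158 CPM in elemental control library E_C_3427, with the next at 136 CPM.

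The effect of MR differed between the protein sources for 4 genes by the test of the difference itself (casein minus elemental, edgeR adjusted p under 0.05): Oat with a log2 difference of -1.16, Prodh with -0.86, Agxt with -0.72 and Mcee with -0.37. Without library C_C_3437, the highest casein control library for Oat, 3 genes passed this test and 18 of the 37 genes fell with casein MR, with 1 higher. Without C_MR_3438, the library with skeletal muscle transcripts, 19 genes fell with casein MR and 5 passed the test of the difference. Without E_C_3430, 5 genes fell with elemental MR and 6 passed the test of the difference.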

How the results depend on the processing

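No paired analysis was possible because the libraries share no replicate numbers. Scaling by library totals gave 5 genes higher and 3 lower with elemental MR, 7 higher and 10 lower with casein MR, 2 with the lower effect in casein, and 2 higher and 10 lower in casein MR over elemental MR; TMM differs from it by the shift of the median gene given above. Among casein MR values called under TMM or library totals, the latter turned Bckdha (0.20), Mcee (0.0426), Hibadh (0.0516) and Got2 (0.16) above 0. Called or not, the genes below 0 went from 31 to 21 with casein MR and from 25 to 11 with elemental MR. With casein MR, 1 gene, Bckdk, was higher under DESeq2 size factors, the stricter filter, the DESeq2 Wald test, 1 surrogate variable and the compared groups alone. The Wald test gave 2 genes higher with elemental MR and 8 with the lower effect in casein, and limma-voom 8. Mcee, the gene higher in casein control, was not called (0 genes) under upper quartile scaling, no filter, limma-voom or the compared groups alone. The cause was not tested. Leaving out each library gave 1 to 2 higher and 4 to 6 lower with elemental MR, 0 to 1 higher and 18 to 22 lower with casein MR, 3 to 8 with the lower effect in casein and 0 with the higher, 0 to 1 higher and 12 to 18 lower between the MR diets, and 0 to 1 higher and 0 lower between the control diets. Of 1628 values of single genes under the other alternatives, 1552 kept their side of the threshold. The call was lost by 33 and gained by 39, and the 4 above reversed. Direction was compared only for values called in the main fit or the alternative, so uncalled values that crossed 0 count as kept. The fit of the compared groups alone does not apply to the difference. Counting error, taken as the Poisson variance at the mean read number, made up most of the variance between libraries in 4 of 148 combinations of gene and group (Sdsl in casein control, Bckdk in casein MR, Afmid and Mccc2 in elemental control), so depth limits these values.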
